A study of Mus musculus with 5 samples.

Results

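The Hox genes of mouse ventral skin were examined in single-cell RNA sequencing libraries. Members were taken by name, as every row of the gene table whose symbol is Hox followed by a complex letter and a paralog number, with no measured value used in the choice. This gave 40 rows with 39 symbols, of 31053 rows in the table, with 11 rows in HoxA, 10 in HoxB, 9 in HoxC and 10 in HoxD, where Hoxd4 stands on 2 rows. Among the kept cells 33 rows had at least 1 unique molecular identifier (UMI, a tag that counts an RNA molecule once), and 26 had 10 or more.

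Hox genes encode homeodomain transcription factors that tell a cell where it lies along the body. They stand in 4 complexes on separate chromosomes, and the order of the genes along a complex matches the order of their domains from head to tail, so that low paralog numbers are active far forward and high ones far back. Fibroblasts of adult skin keep much of this positional pattern, and chromatin regulators of the Polycomb and trithorax groups are known for holding Hox genes silent or active. The proteins bind DNA together with Pbx and Meis partners.

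The libraries came from C57BL/6J mice at postnatal day 28. The 3 Ikkb_cKO libraries came from animals labelled Prx1Cre+Ikkbf/f, in which Cre under a Prrx1 enhancer, active in the mesenchyme of limbs and part of the trunk, is meant to delete floxed Ikkb, and the 2 WT libraries came from wild-type animals. Ikkb, listed as Ikbkb, encodes a kinase that activates NF-kB. Each library pooled 2 mice, so single animals cannot be told apart, and cells were sorted only against debris, dead cells and aggregates.

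Of 11084 barcodes, 10393 were kept, and the libraries shared at most 17 barcodes with each other. The total was 2163166 to 9738296 UMIs in Ikkb_cKO and 14659158 and 16773096 UMIs in WT. Cells were grouped without the Hox genes and classed by marker genes, and a class is called fibroblast-like and so on because no protein marker was used. There were 520, 482 and 855 fibroblast-like cells in Ikkb_cKO libraries 1, 2 and 3, against 1724 and 1850 in WT libraries 1 and 2. The median depth of these cells was 1541 to 2451 UMIs in Ikkb_cKO and 4683 and 5237 UMIs in WT. The 27 fibroblast markers summed to 81330 to 94790 UMIs per 1000000 UMIs (CPM) in Ikkb_cKO and 80640 and 82750 CPM in WT fibroblast-like cells. Ikbkb stood at 16.3, 21.5 and 15.3 CPM in Ikkb_cKO and at 14.8 and 18.4 CPM in WT fibroblast-like cells. The tags read the ends of transcripts and the labels do not say which exons are floxed, so the Ikbkb level is no check of the deletion. Prrx1 stood at 311, 324 and 258 CPM in Ikkb_cKO against 153 and 151 CPM in WT fibroblast-like cells.

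The DNA of the homeobox, the 180 bases that encode the DNA-binding domain of 60 residues, is shown for the 7 members on which the results below turn. It was cut from GENCODE transcripts of GRCm38, 5′ to 3′ on the coding strand, and the 6 codons in capitals encode a run of the third helix that is conserved in Hox proteins and lies in the groove of the DNA. The first 2 are paralogs from different complexes that had opposite patterns in endothelial-like cells, Hoxc6, Hoxc9, Hoxc4 and Hoxb2 are members with high levels in fibroblast-like cells, and Hoxc13 was found in keratinocyte-like cells.
Hoxc8: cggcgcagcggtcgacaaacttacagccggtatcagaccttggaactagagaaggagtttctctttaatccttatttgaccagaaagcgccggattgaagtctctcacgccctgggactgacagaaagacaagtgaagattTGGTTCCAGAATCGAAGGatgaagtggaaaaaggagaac
Hoxd8: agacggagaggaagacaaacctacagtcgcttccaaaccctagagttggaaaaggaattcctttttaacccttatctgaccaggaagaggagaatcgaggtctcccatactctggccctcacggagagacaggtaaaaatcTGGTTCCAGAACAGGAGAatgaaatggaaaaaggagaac
Hoxc6: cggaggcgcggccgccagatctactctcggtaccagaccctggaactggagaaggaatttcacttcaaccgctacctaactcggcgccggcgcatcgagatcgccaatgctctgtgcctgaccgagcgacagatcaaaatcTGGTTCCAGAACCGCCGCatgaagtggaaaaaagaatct
Hoxc9: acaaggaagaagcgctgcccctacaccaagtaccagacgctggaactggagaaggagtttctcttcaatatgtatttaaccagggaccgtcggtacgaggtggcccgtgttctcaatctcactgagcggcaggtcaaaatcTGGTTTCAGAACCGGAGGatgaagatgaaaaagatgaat
Hoxc4: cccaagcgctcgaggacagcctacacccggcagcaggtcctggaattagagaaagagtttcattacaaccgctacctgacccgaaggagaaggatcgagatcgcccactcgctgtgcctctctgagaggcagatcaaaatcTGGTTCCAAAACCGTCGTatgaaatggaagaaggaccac
Hoxb2: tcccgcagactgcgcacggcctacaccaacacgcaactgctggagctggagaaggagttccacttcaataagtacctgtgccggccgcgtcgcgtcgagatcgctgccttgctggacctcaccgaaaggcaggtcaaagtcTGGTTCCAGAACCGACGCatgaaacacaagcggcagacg
Hoxc13: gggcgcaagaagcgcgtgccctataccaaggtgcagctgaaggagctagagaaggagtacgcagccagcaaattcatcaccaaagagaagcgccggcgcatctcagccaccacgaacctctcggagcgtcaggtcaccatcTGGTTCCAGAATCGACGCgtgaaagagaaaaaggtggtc

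These stretches lie within single exons, at chr15:102992571-102992750 for Hoxc8 (ENSMUSG00000001657), chr2:74706525-74706704 for Hoxd8 (ENSMUSG00000027102), chr15:103010754-103010933 for Hoxc6 (ENSMUSG00000001661), chr15:102983930-102984109 for Hoxc9 (ENSMUSG00000036139), chr15:103035663-103035842 for Hoxc4 (ENSMUSG00000075394), chr11:96352985-96353164 for Hoxb2 (ENSMUSG00000075588) and chr15:102927210-102927389 for Hoxc13 (ENSMUSG00000001655), all on the plus strand. Hoxc8 and Hoxd8 shared 132 of the 180 bases (73.3%), the most of any pair shown. Hoxc13 and Hoxc6 shared 92 bases (51.1%), the fewest of any pair shown. Over all pairs of the 39 rows with such a stretch the identity ran between 46.1% and 93.9%. In the annotation 6 rows share exon bases on the same strand with another counted gene, among them Hoxa3, Hoxa2, Hoxc5 and Hoxc10, and only Hoxd4 does so within its last 500 exon bases, where most 3′ tags fall.

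Hox transcripts were found in the classes of mesenchyme, vessel wall, skeletal muscle and epithelium, and were close to absent from myeloid-like and lymphocyte-like cells. Summed over the 40 rows, Hox genes gave 212 CPM in fibroblast-like, 317 CPM in mural-like, 325 CPM in endothelial-like, 116 CPM in keratinocyte-like and 105 CPM in muscle-like cells, pooled over the 5 libraries. Myeloid-like cells had 5.26 CPM (43 UMIs in 2529 cells) and lymphocyte-like cells 3.89 CPM (12 UMIs in 1160 cells). The small B-lineage-like and mast-like classes had 6 Hox UMIs in 55 cells (16.0 CPM) and 2 in 125 cells (6.15 CPM). A UMI counts a molecule at its 3′ end, so these levels need no division by transcript length. The fibroblast-like sums by library were 174, 217 and 226 CPM in Ikkb_cKO against 209 and 214 CPM in WT, so the genotypes overlapped.

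**Figure D1:**
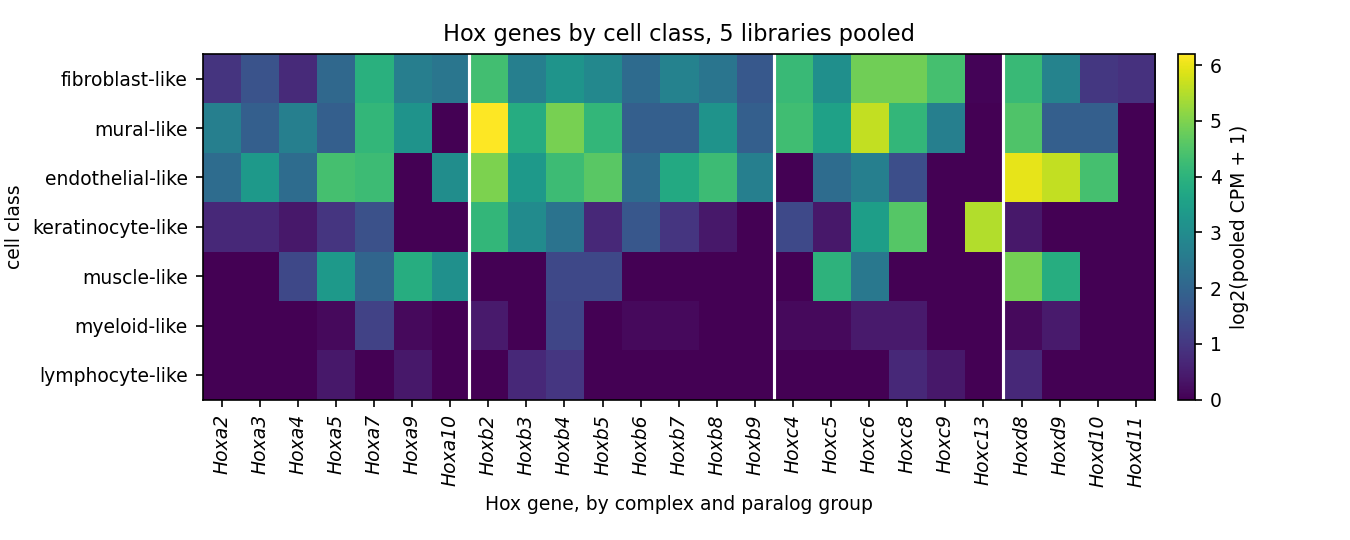
Heat map of the pooled level of 25 Hox genes with 10 or more UMIs, as log2(CPM + 1), by cell class (rows) and gene (columns, HoxA to HoxD, white lines between complexes), over the 5 libraries. Hoxc13 is bright in keratinocyte-like cells, Hoxd8 and Hoxd9 in endothelial-like cells, Hoxb2 in mural-like cells, and the myeloid-like and lymphocyte-like rows are dark.

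The share of fibroblast-like cells with a UMI of any Hox gene was 34.7% in Ikkb_cKO (645 of 1857, 95% Wilson interval 32.6 to 36.9) and 59.2% in WT (2116 of 3574, 57.6 to 60.8). After each cell was thinned to 1000 UMIs the shares were 18.7% of 1473 cells in Ikkb_cKO and 18.2% of 3407 cells in WT. By library the thinned shares were 14.7%, 20.9% and 19.7% in Ikkb_cKO and 17.2% and 19.1% in WT, so the genotypes overlapped at equal depth. Thinning left out 145, 109 and 130 cells in Ikkb_cKO libraries and 85 and 82 in WT libraries. Myeloid-like cells, which should lack most Hox transcripts, had shares of 1.64% in Ikkb_cKO and 1.43% in WT, and 0.455% and 0.483% after thinning, with median depths of 1529 to 2468 UMIs in Ikkb_cKO and 2557 and 2689 UMIs in WT libraries. Where these few UMIs in myeloid-like cells came from was not tested. Intervals and limits from counts cover counting error only.

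Free RNA of fibroblasts can carry Hox UMIs, and those of Dcn, a collagen-binding proteoglycan of fibroblasts, into other classes. How much it did so here was not tested, and the UMIs of both are given for each class as a description. Fibroblast-like cells had 23.6 Hox UMIs per 1000 Dcn UMIs. Endothelial-like cells had 180 Hox UMIs and 19 Dcn UMIs, and keratinocyte-like cells had 365 and 1009. Mural-like cells had 118 and 109, and muscle-like cells had 69 and 61. Myeloid-like cells had 43 and 469 (91.7 per 1000), and lymphocyte-like cells had 12 and 91 (132 per 1000). The source of the Hox UMIs in these classes was not tested. Schwann-like cells had 12 Hox UMIs beside 591 of Dcn, a ratio of 20.3 per 1000, which cannot be told apart from that in fibroblast-like cells.

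Fibroblast-like cells were compared with each of 4 classes by edgeR's quasi-likelihood test on summed UMIs, with the library as a block, all genes in the fit and Benjamini-Hochberg adjustment over them. All 8 members that passed the low-count filter were higher than in myeloid-like cells (Hoxd8, Hoxa7, Hoxb4, Hoxb2, Hoxc9, Hoxc8, Hoxc6 and Hoxc4), against 30.7% of all genes tested. Their median log2 fold change was 6.03, beside 0.06 over all genes. Hoxc8, for example, had 719 UMIs in fibroblast-like and 3 in myeloid-like cells, a ratio of 76.4 (95% counting interval 26.0 to 371). All 5 members that passed were higher than in lymphocyte-like cells (Hoxd8, Hoxb2, Hoxc8, Hoxc6 and Hoxc4), against 33.8% of all genes. Without Ikkb_cKO library 3, 3 members were called against lymphocyte-like cells. With no low-count filter, 21 members were higher than in myeloid-like cells (22.6% of all genes) and 20 higher than in lymphocyte-like cells (24.3%). The 8 and 5 members passed the filter through their fibroblast-like level, where they are high, so these counts are a description.

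Endothelial-like cells had another mixture. Of the Hox UMIs there, 40% came from HoxD (95% Wilson interval 33.1 to 47.3) and 3.33% from HoxC (1.54 to 7.08), against 11.9% (11.1 to 12.8) and 47.5% (46.2 to 48.8) in fibroblast-like cells. Of the 4 members that passed the filter, Hoxc8 and Hoxc6 were higher in fibroblast-like cells (19.3% of all genes were called higher) and Hoxd8 was lower (13.7% were called lower). The log2 fold change of Hoxc8, a gene of the thoracic body region, was 4.15 (SE 0.90, adjusted p = 2.39e-05), with 719 UMIs in fibroblast-like and 1 in endothelial-like cells. Hoxc8 and Hoxc6 passed the filter through the fibroblast-like libraries, where they are high, so their count supports nothing by itself. Hoxc6 had 2.58 (SE 0.69, adjusted p = 0.000908) with 713 and 3 UMIs. Hoxc9 and Hoxc4 had 508 and 446 UMIs in fibroblast-like cells and 0 in endothelial-like cells, at least 3.34-fold and 3.36-fold higher when 3 UMIs over the class are taken as the limit and the fibroblast-like libraries are weighted as in the endothelial-like class.

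Hoxd8, the HoxD paralog of Hoxc8, stood lower in fibroblast-like than in endothelial-like cells (log2 fold change -1.20, SE 0.38, adjusted p = 0.00641 by edgeR). It stood at 16.3, 24.3 and 47.4 CPM in Ikkb_cKO and 13.1 and 13.5 CPM in WT fibroblast-like cells. In endothelial-like cells it stood at 88.6, 0 and 107 CPM in Ikkb_cKO (1, 0 and 15 UMIs) and at 24.2 and 65.1 CPM in WT (4 and 14 UMIs). It was lower in fibroblast-like cells of 4 of the 5 libraries, all but Ikkb_cKO library 2, and the call was lost without WT library 2. Hoxd9 and Hoxd10, its neighbours, had 27 and 11 UMIs in the 198 endothelial-like cells. They were not tested under the filter, and with no low-count filter (6.35% of all genes were then called lower) both were called lower in fibroblast-like cells, with log2 fold changes of -2.23 (SE 0.45, adjusted p = 8.31e-06) and -3.38 (SE 0.84, adjusted p = 0.000541). In that fit Hoxd8 had an adjusted p of 0.0863 and was not called, while Hoxa5 was (-2.03, SE 0.62, adjusted p = 0.00784). Ikkb_cKO libraries 1 and 2 held 9 and 10 endothelial-like cells.

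Keratinocyte-like cells carried Hoxc13, a regulator of hair and nail keratin genes, which fibroblast-like cells nearly lacked. It had 139 UMIs in 354 keratinocyte-like cells and 1 UMI in 5431 fibroblast-like cells. By library the keratinocyte-like UMIs were 0, 5 and 132 in Ikkb_cKO and 2 and 0 in WT. Ikkb_cKO library 3 held 298 of the 354 cells, so the level rests on that library. Within it Hoxc13 stood at 46.3 CPM in keratinocyte-like and 0.392 CPM (1 UMI) in fibroblast-like cells, a ratio of 118 with a 95% counting interval of 20.85 to 4703. It was highest in cluster 28, with Krt17, Krt25 and Krt71 among its leading genes, keratins of the hair follicle and its inner root sheath, with 128 UMIs in 172 cells of Ikkb_cKO library 3 (76.8 CPM). In cluster 18, led by Krt77, Krtdap and Lgals7 of the epidermis, the same library had 4 UMIs in 126 cells (3.38 CPM). WT libraries held 3 cells of cluster 28, so its level in WT is not known from these data. Of cells with a Hoxc13 UMI there were 61 of 316 in Ikkb_cKO (19.3%) and 2 of 38 in WT (5.26%) and cluster 28 gave 7, 9 and 172 cells in Ikkb_cKO and 1 and 2 in WT.

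Of the 6 members tested against keratinocyte-like cells, 3 were higher in fibroblast-like cells (23.3% of all genes were) and none was lower (10% of all genes were). Hoxd8, Hoxc4 and Hoxc6 passed the filter through the fibroblast-like libraries, where they are high, and Hoxc13 did not pass it. The direction of this count was thus set in part by the filter, and the count is a description. The 3 were Hoxd8 (log2 fold change 6.94, SE 0.92, adjusted p = 8.75e-07, with 443 UMIs in fibroblast-like and 1 in keratinocyte-like cells), Hoxc4 (3.17, SE 0.81, adjusted p = 0.00295) and Hoxc6 (1.5, SE 0.54, adjusted p = 0.0336). Without Ikkb_cKO library 3 a single member was called. Without a low-count filter 13 members were called higher (17.6% of all genes) and 1, Hoxc13, lower (8.63%). Hoxc8 and Hoxb2 were not called, with log2 fold changes of -0.09 (95% interval -0.96 to 0.78) and 0.07 (-0.97 to 1.12). In Ikkb_cKO library 3 Hoxc8 stood at 31.8 CPM in cluster 28 and 4.23 CPM in cluster 18, and Hoxb2 at 24.0 and 5.08 CPM. Cluster 28 of that library also held 870 UMIs of the fibroblast gene Dcn (522 CPM, in 58 of 172 cells), and cluster 18 held 0. The part of fibroblast RNA in this difference was not tested. In cluster 18 of WT libraries 1 and 2 Hoxc8 had 39.6 and 48.0 CPM (3 and 6 UMIs). Hoxb2 had 39.6 and 16.0 CPM there (3 and 2 UMIs). Hoxc9, Hoxd9, Hoxa9 and Hoxa10 had 0 UMIs in keratinocyte-like cells. Within Ikkb_cKO library 3, with 3 UMIs in its keratinocyte-like cells taken as the limit, Hoxc9 and Hoxd9 were at least 8.94-fold and Hoxa9 and Hoxa10 at least 4.47-fold higher in fibroblast-like cells. HoxD as a whole gave 1 of the 365 Hox UMIs of keratinocyte-like cells (0.274%, 95% Wilson interval 0.0484 to 1.54).

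Mural-like cells, the muscle cells and pericytes of vessels, were led by Hoxb2 with 27 of 118 Hox UMIs, at 87.0, 78.0 and 50.5 CPM in Ikkb_cKO (1, 1 and 5 UMIs) and 52.05 and 104 CPM in WT (6 and 14 UMIs). HoxB gave 46.6% of their Hox UMIs (95% Wilson interval 37.9 to 55.6). In muscle-like cells HoxA and HoxD gave 37.7% and 40.6% of 69 UMIs, with 19 UMIs of Hoxd8, 10 of Hoxc5 and 9 each of Hoxa9 and Hoxd9, and none of Hoxb2 or Hoxc8. No test was run in the mural-like and muscle-like classes, and their values are a description.

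In fibroblast-like cells 31 of the 40 rows had a UMI, and 9 did not (Hoxd12, both Hoxd4 rows, Hoxd1, Hoxa13, Hoxb13, Hoxb1, Hoxc12 and Hoxc11). A gene with 0 UMIs there could still have a level of up to 0.117 CPM, the level of 3 UMIs in the pool. The other rows with fewer than 10 UMIs in all kept cells were Hoxd13, Hoxd3, Hoxa6, Hoxa11 and Hoxc10. Rows of paralog groups 4 to 8 gave 68.2% of the Hox UMIs, groups 1 to 3 gave 13.01%, groups 9 and 10 gave 18.25%, and groups 11 to 13 gave 0.534%. By complex, HoxC gave 47.5%, HoxB 25.8%, HoxA 14.8% and HoxD 11.9%.

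Hoxc8 was the highest by pooled level at 28.0 CPM, followed by Hoxc6 at 27.8, Hoxc9 at 19.8, Hoxb2 at 18.8, Hoxc4 at 17.4, Hoxd8 at 17.3 and Hoxa7 at 14.3 CPM, and these 7 genes gave 67.7% of the Hox UMIs. WT libraries gave 82.0% of the UMIs of this pool. By the mean of the 5 libraries Hoxd8 came next after Hoxc8 and Hoxc6, at 22.9 ± 14.4 CPM (SD, n = 5), against Hoxc8 at 27.5 ± 4.98 and Hoxc6 at 25.0 ± 4.58 CPM. Hoxc8 had 19.3, 31.7 and 31.0 CPM in Ikkb_cKO and 26.8 and 28.9 CPM in WT, and the genotypes overlapped. Hoxc6 had 18.3, 22.4 and 27.4 CPM in Ikkb_cKO and 27.6 and 29.4 CPM in WT. Hoxc9, at the border of the thoracic and lumbar regions, had 18.3, 22.4 and 9.41 CPM in Ikkb_cKO and 21.2 and 20.8 CPM in WT. In the order of these means, 0 of the 30 gaps between neighbours were wider than the larger SD of the pair, so neighbours in the order do not differ beyond the spread of the libraries.

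The members in the middle of the range were Hoxb4 (8.19 CPM pooled), Hoxc5 (7.57), Hoxb5 (6.48), Hoxd9 (5.85), Hoxb7 (5.73), Hoxb3 (5.34), Hoxa9 (5.27), Hoxa10 (4.45), Hoxb8 (4.33), Hoxb6 (3.47), Hoxa5 (3.24), Hoxb9 (2.26) and Hoxa3 (1.99). Hoxd10, Hoxa2, Hoxd11 and Hoxa4 lay between 0.663 and 1.01 CPM. Hoxb4 regulates blood stem cells and is also a gene of the neck region, and Hoxa5 patterns the neck, thorax and lung. Hoxb6 had 3.05, 2.80 and 3.14 CPM in Ikkb_cKO and 2.99 and 4.06 CPM in WT and did not pass the low-count filter.

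**Figure D2:**
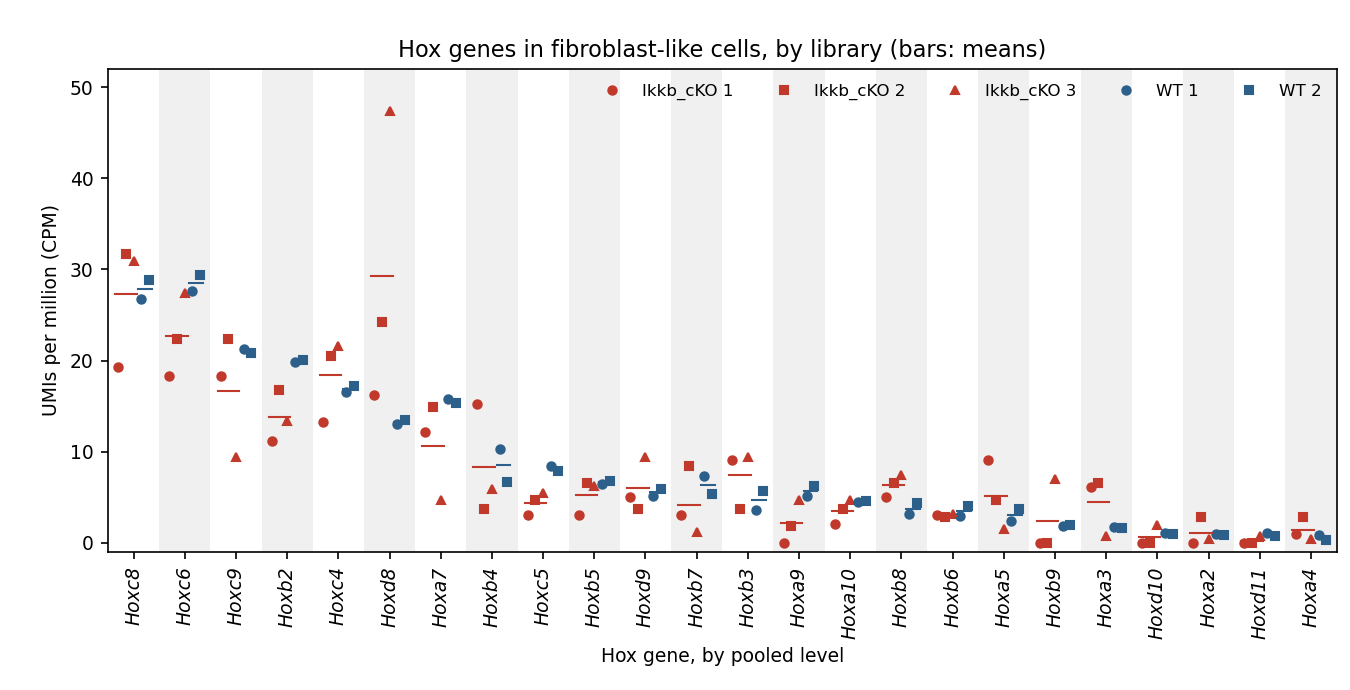
Level in CPM of 24 Hox genes with 10 or more UMIs in fibroblast-like cells, ordered by pooled level. Each point is a library, red for Ikkb_cKO and blue for WT, and short bars are group means. The Hoxd8 point of Ikkb_cKO library 3 at 47.4 CPM is the highest of all points, and the blue points of a gene lie close together.

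Among 6 clusters of WT fibroblast-like cells, 12 of 16 members had their highest level in the same cluster in both libraries, and 6 of 16 their lowest. The 6 clusters with at least 1000000 WT UMIs (3473 cells) were compared as a description, with no test, and genes were ranked by the ratio of the highest to the lowest cluster mean after their values were seen. Cluster 0 (40 and 53 WT cells) had fewer than 1000000 WT UMIs and was left out. In WT libraries 1 and 2 its Hoxb8 stood at 0 and 18.9 CPM (0 and 4 UMIs). Its Hoxa9 stood at 23.4 and 4.71 CPM (3 and 1 UMIs). Hoxc9 had 39.0 and 42.4 and Hoxc6 46.8 and 75.4 CPM there, above the 6 clusters, while Hoxb2 (7.81 and 23.6 CPM) was within their range. Of the 6, Hoxb8 and Hoxb5 were highest in cluster 5, led by Cilp, Mfap4 and Thbs4, genes of extracellular matrix. Hoxb8 had 9.62 and 8.99 CPM there and 0.841 and 0.624 CPM in cluster 3, led by Postn, Lum and Ccl11. Hoxb5 had 17.3 and 15.4 CPM in cluster 5 and 1.68 and 1.87 CPM in cluster 3.

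Hoxa9 and Hoxa10 were high where Hoxb5 and Hoxb8 were low, in cluster 3. Of the 6 clusters, Hoxa9 was highest in cluster 3 with 8.41 and 12.2 CPM and had 2.57 and 1.28 CPM in cluster 5. Hoxa10 had 7.99 and 7.17 CPM in cluster 3 and 1.92 and 1.93 CPM in cluster 5. The opposite levels were not seen in every cluster. In cluster 4 Hoxb8 had 1.73 and 1.32 CPM and Hoxa10 1.73 and 3.97 CPM, and in cluster 10 Hoxa9 had 1.60 and 1.78 CPM. Hoxa7 was highest in cluster 10, led by Mfap5, Clec3b and Igfbp6, with 24.8 and 27.3 CPM, and lowest in both libraries in cluster 2 with 9.16 and 7.81 CPM. Hoxc8 varied less, between 20.8 and 11.9 CPM in cluster 4 and 37.2 and 40.5 CPM in cluster 5, and Hoxc4 had 12.6 and 13.1 CPM in cluster 3 and 21.8 and 25.1 CPM in cluster 5. The libraries did not match everywhere: in cluster 10 Hoxb8 had 0.799 CPM in WT library 1 and 5.94 CPM in WT library 2. The low values rest on few UMIs, such as 4 UMIs of Hoxb8 and 10 of Hoxb5 in cluster 3.

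**Figure D3:**
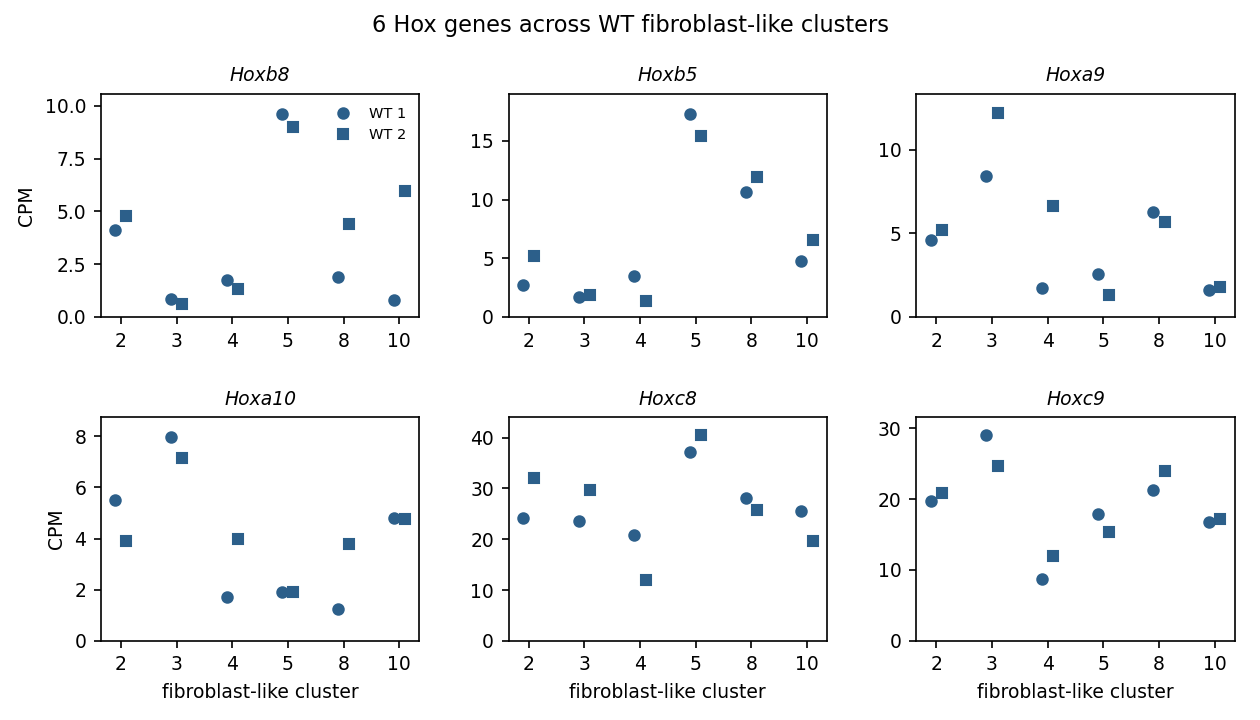
Level in CPM of 6 Hox genes in the 6 largest WT fibroblast-like clusters (by number, with WT library 1 as circles and WT library 2 as squares). Hoxb8 and Hoxb5 peak in cluster 5 in both libraries, Hoxa9 and Hoxa10 peak in cluster 3, and Hoxc8 and Hoxc9 are present in all 6.

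The genotypes were then compared in fibroblast-like cells, which is the class in which the Cre is meant to act. None of the 18 members tested was called by edgeR at an adjusted p of 0.05, beside 34.4% of all 10398 genes tested, 16.7% higher and 17.7% lower in Ikkb_cKO. The members had average levels of 1.39 to 4.83 log2 CPM, and the share called among genes of like level was not computed. The lack of a call thus does not show a lack of change. An unadjusted p of under 0.05 was reached by 4 members (Hoxd8, Hoxc5, Hoxb2 and Hoxb8), and DESeq2 also called none, with 1 member at an unadjusted p of under 0.05. The median log2 fold change of the 18 was -0.24, beside 0.04 over all genes. The genotypes differed in the clusters that made up the class. Clusters 0, 17 and 29 came mostly from Ikkb_cKO (9, 14 and 348, 58, 49 and 201, and 318, 294 and 84 cells, against 40 and 53, 3 and 4, and 1 and 0 WT cells), and clusters 3 and 10 mostly from WT (2, 3 and 11, and 3, 1 and 3 Ikkb_cKO cells, against 303 and 360, and 243 and 298 WT cells). The 15 mural markers summed to 222, 219 and 405 CPM in Ikkb_cKO and 659 and 724 CPM in WT fibroblast-like cells. The part of these differences in the members' values was not tested. Of the 18, Hoxa3 and Hoxa5 passed the filter through Ikkb_cKO libraries alone. Hoxb8 and Hoxb3 were over its cutoff (3.92 CPM) in 1 WT library each and needed the Ikkb_cKO libraries to pass. Hoxa9, Hoxa10 and Hoxb7 were over it in 1 Ikkb_cKO library each and needed the WT libraries. All of these passed through the group where their mean is higher, so their directions support nothing by themselves.

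Hoxd8 had the highest log2 fold change, 1.20 (SE 0.41, 95% interval 0.20 to 2.19, adjusted p = 0.0659 by edgeR). Its levels, given above, were higher in all 3 Ikkb_cKO libraries than in both WT libraries, with library 3 at 47.4 CPM. Within clusters its level in Ikkb_cKO library 3 was 56.8 CPM in cluster 0, 59.9 in cluster 5, 51.7 in cluster 8, 42.2 in cluster 17 and 32.6 in cluster 29. In Ikkb_cKO libraries 1 and 2 it was 22.7 and 9.60 CPM in cluster 5, 0 and 87.3 in cluster 8, 19.3 and 28.8 in cluster 17 and 12.5 and 23.5 in cluster 29, each from 15 UMIs or fewer. In WT libraries it was 23.4 and 23.6 CPM in cluster 0, 10.3 and 14.1 in cluster 5 and 18.15 and 18.25 in cluster 8. Library 3 was thus above both WT libraries in clusters 0, 5 and 8, while the other Ikkb_cKO libraries lay on both sides of them. Hoxd8 was called higher without Ikkb_cKO library 1, with a looser cell filter and in cells thinned to 1000 UMIs. Its log2 fold change ran from 0.55 to 1.49 over all alternatives, and its adjusted p from 0.0338 to 0.323.

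Hoxb8 was the other member higher in every Ikkb_cKO library than in either WT library. It stood at 5.08, 6.53 and 7.45 CPM in Ikkb_cKO and 3.20 and 4.32 CPM in WT (log2 fold change 0.77, SE 0.32, adjusted p = 0.104 by edgeR). Hoxc5 was lower in every Ikkb_cKO library, at 3.05, 4.67 and 5.49 CPM against 8.46 and 7.94 CPM in WT (log2 fold change -0.84, SE 0.30, adjusted p = 0.0678 by edgeR). Hoxb2, which patterns the hindbrain and neck, was also lower, at 11.2, 16.8 and 13.3 CPM in Ikkb_cKO against 19.9 and 20.03 CPM in WT (log2 fold change -0.58, SE 0.21, adjusted p = 0.0739 by edgeR). In all, 8 of the 18 tested members had genotypes that did not overlap on the normalised scale, 2 higher and 6 lower in Ikkb_cKO. Among them, Hoxb8 and Hoxa9 passed the filter through the group where they are high. Of all genes tested 60.2% did not overlap, 29.2% higher and 30.9% lower.

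Hoxa7 and Hoxa9 had lower values in every Ikkb_cKO library and were not called. Hoxa9 had 0, 1.87 and 4.70 CPM in Ikkb_cKO against 5.16 and 6.26 CPM in WT (log2 fold change -0.998, SE 0.58, adjusted p = 0.219 by edgeR). Hoxa7 had 12.2, 14.9 and 4.70 CPM in Ikkb_cKO against 15.8 and 15.4 CPM in WT (log2 fold change -0.77, SE 0.40, adjusted p = 0.176), and in cells thinned to 1000 UMIs it was called lower (-1.63, adjusted p = 0.0273, with 0.0273 to 0.517 over the alternatives, by edgeR). Hoxc6 (-0.33, SE 0.21) and Hoxb5 (-0.30, SE 0.31) also showed no overlap.

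The other 10 members overlapped between genotypes. For Hoxc8 the log2 fold change was -0.04 with a 95% interval of -0.58 to 0.49, and for Hoxc4 it was 0.12 with an interval of -0.44 to 0.68, so changes of more than 1 log2 unit in either direction lie outside these intervals. Only 3 members had intervals that stayed within 1 log2 unit of 0. For Hoxa3 the interval was -0.81 to 2.74, with 6.10, 6.53 and 0.784 CPM in Ikkb_cKO against 1.75 and 1.68 CPM in WT. For Hoxb7 it was -2.36 to 0.49, for Hoxc9 -1.25 to 0.28, and Hoxa10, Hoxa5, Hoxb3, Hoxb4 and Hoxd9 had log2 fold changes between -0.29 and 0.70.

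**Figure D4:**
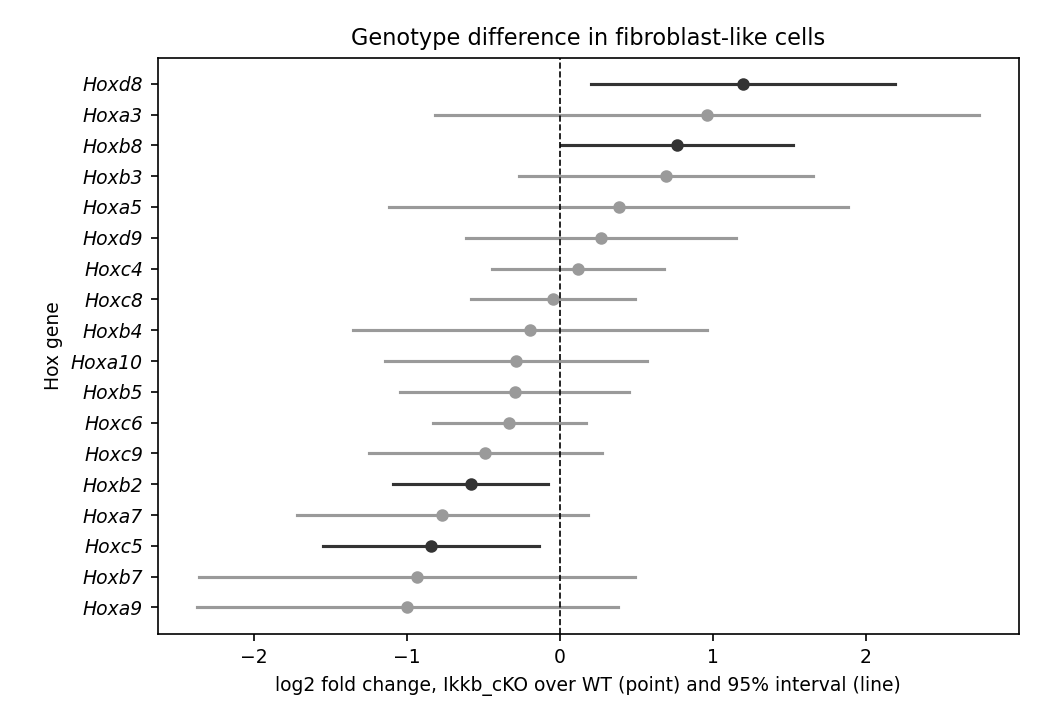
Log2 fold change of 18 Hox genes in fibroblast-like cells, Ikkb_cKO over WT, with 95% intervals (lines) and dark colour where the unadjusted p is under 0.05. Hoxd8 lies highest and Hoxa9 lowest, and the intervals of 14 genes include 0.

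The makeup by complex differed in 1 library. HoxD gave 12.3%, 12.9% and 26.5% of the Hox UMIs of fibroblast-like cells in Ikkb_cKO libraries 1, 2 and 3 (95% Wilson intervals 8.17 to 18.0, 9.17 to 17.8 and 23.1 to 30.3), against 9.96% and 9.94% in WT libraries (8.73 to 11.3 and 8.81 to 11.2). HoxA gave 17.5%, 18.0% and 7.63% in Ikkb_cKO against 15.3% and 15.6% in WT. HoxC ran between 41.5% and 46.8% in Ikkb_cKO and was 48.15% and 48.7% in WT, and HoxB between 22.3% and 28.65% in Ikkb_cKO and 26.6% and 25.7% in WT. Ikkb_cKO library 3 thus stood apart from the other 4 libraries in HoxD and HoxA. The same library held 348 of the 464 cells of cluster 0 and 298 of 354 keratinocyte-like cells. In its fibroblast-like cells the 6 melanocyte markers summed to 352 CPM, against 48.5 to 66.1 CPM in the other Ikkb_cKO libraries and 74.8 and 70.5 CPM in WT, and the 15 Schwann markers to 697 CPM, against 375 and 378 CPM in the other Ikkb_cKO libraries and 353 and 336 CPM in WT, and their part in the HoxD share was not tested.

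**Figure D5:**
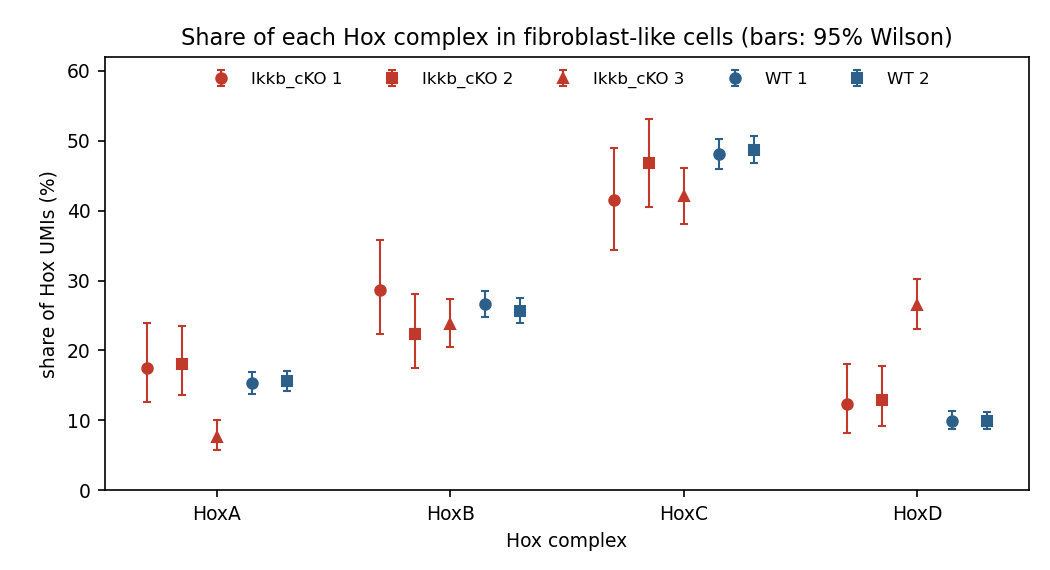
Share of the Hox UMIs of fibroblast-like cells in each Hox complex by library, in percent, with 95% Wilson intervals (red for Ikkb_cKO and blue for WT). In HoxD, Ikkb_cKO library 3 lies at 26.5% and the other 4 libraries between 9.94% and 12.9%. In HoxA the same library lies at 7.63% and the others between 15.3% and 18.0%.

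Without Ikkb_cKO library 3, 4 members were called, Hoxa3 higher and Hoxa9, Hoxc5 and Hoxc6 lower, in a fit that called 23.4% of all genes higher and 24.9% lower. Hoxa3 had a log2 fold change of 1.81 (adjusted p = 0.00334, with 0.00334 to 0.726 over the alternatives) and Hoxa9 one of -2.60 (adjusted p = 0.0026, with 0.0026 to 0.479) in that fit, both by edgeR. Its filter let Hoxa3 in through Ikkb_cKO libraries and Hoxa9 through WT libraries, where each is high, so these calls are a description. Hoxb9 had 0, 0 and 18 UMIs in Ikkb_cKO libraries against 18 and 22 in WT, so it was seen in library 3 alone of the Ikkb_cKO libraries, and it did not pass the filter. A floor of 3 UMIs in a library of that depth would be a level of 3.05 and 2.80 CPM in Ikkb_cKO libraries 1 and 2. These lie above the 1.86 and 1.94 CPM of WT, so 0 UMIs in libraries 1 and 2 do not show a lower level. In cluster 0, where library 3 gave 348 of 371 Ikkb_cKO cells, Hoxb9 had 17 UMIs in Ikkb_cKO (15.2 CPM) and 7 in WT (20.6 CPM).

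Myeloid-like and lymphocyte-like cells had no Hox member past the filter, so no genotype comparison of members was possible there, while 18.9% and 10.4% of all genes were called in these classes. The test of whether the genotype difference itself differed between fibroblast-like and myeloid-like cells called 0 of 8 members (13.9% of all genes), and against lymphocyte-like cells 0 of 5 (3.63%). By edgeR 0 members had an unadjusted p under 0.05 in either, and DESeq2 was not run for these. Members at 0 UMIs in the other class had no usable interval, and the lymphocyte-like class held 12 Hox UMIs in all.

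The noncoding RNAs of the Hox complexes, the cofactors and the known regulators of the complexes were read in the same fit, by lists chosen with earlier results of these data known. Of 12 listed noncoding RNAs, 8 are in the gene table and 3 were tested, with 1 higher and none lower in Ikkb_cKO, beside 16.7% and 17.7% of all genes (median log2 fold change 0.57, beside 0.04 over all genes). This was Hoxd3os1, a transcript antisense to Hoxd3, at 12.0, 13.7 and 19.1 normalised CPM in Ikkb_cKO against 8.75 and 7.55 in WT (log2 fold change 0.93, SE 0.26, adjusted p = 0.0337 by edgeR). The counting setting for strand is not given in the sources used here, so reads of Hoxd3os1 and of genes on the other strand cannot be told apart. Hotairm1, a noncoding RNA of the HoxA complex, and Hoxb3os were not called, with log2 fold changes of 0.57 and 0.47.

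The cofactor list had 8 of 9 genes tested, 2 higher and none lower, beside 16.7% and 17.7% of all genes (median log2 fold change 0.34). Pbx3, which encodes a partner that binds DNA with Hox proteins, had 6.00, 3.64 and 6.76 normalised CPM in Ikkb_cKO against 1.92 and 2.61 in WT (log2 fold change 1.33, SE 0.39, adjusted p = 0.0385 by edgeR). Pknox2 was not called (0.74, SE 0.27, adjusted p = 0.0731). Of the 9 listed genes of upstream control, 6 were tested and 1 was higher, near the share over all genes. It was Rarb, a retinoic acid receptor, at 14.0, 14.6 and 6.36 normalised CPM in Ikkb_cKO against 4.27 and 2.79 in WT (log2 fold change 1.59, SE 0.43, adjusted p = 0.0296), while Rxra and Rarg had 0.57 and -0.73 and were not called.

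Of 30 Polycomb genes 28 were tested, and 5 were higher and 5 lower in Ikkb_cKO, beside 16.7% and 17.7% of all genes (median log2 fold change 0.33). The smallest p-values were those of Aebp2 and Suz12, parts of the complex that methylates histone H3, and of Pcgf5, a part of the complex that ubiquitinates histone H2A. Aebp2 stood at 59.0, 61.0 and 78.7 normalised CPM in Ikkb_cKO against 26.7 and 22.0 in WT (log2 fold change 1.46, SE 0.20, adjusted p = 0.00346 by edgeR), Pcgf5 had a log2 fold change of 1.47 and Suz12 one of 1.046. Of 17 trithorax and related genes all 17 were tested, 6 higher and 1 lower (median 0.51). The demethylase gene Kdm6b stood at 469, 449 and 403 normalised CPM against 178 and 168 in WT (log2 fold change 1.35, SE 0.14, adjusted p = 0.00206 by edgeR), and Aff1 and Dot1l had log2 fold changes of 1.44 and 1.73. The 16 genes that flank the complexes had 10 tested members, 1 higher and 3 lower (median -0.30), among them Snf8 (-1.08), Mtx2 (-1.01) and Atf2 (0.73).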

How the data were processed

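UMI counts per gene and barcode were deposited for 5 libraries (2 WT, 3 Ikkb_cKO). Cell Ranger 1.3.0 and the build mm10 are named in the submitters' processing notes, and the matrices carry software version 3.0.1, per the file headers. The counting setting for introns and strand is not given in the sources used here.

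Cells needed 300 or more genes, with mitochondrial UMIs at 10% or less. The expected share of barcodes with the highest Scrublet scores was removed as doublets (240 barcodes, 2.165%), since the automatic threshold marked 39 (0.352%). Cells were clustered with scanpy 1.11.5 (2000 variable genes without Hox genes, 30 components, Leiden resolution 1.0), giving 31 clusters of which 29 were named from 13 marker lists and 168 cells stayed unnamed. UMIs were summed per library and class and tested with edgeR 4.0.16 (TMM, filterByExpr, quasi-likelihood, R 4.3.3), with DESeq2 1.42.0 as an alternative. The code was checked on simulated data, where 44% of 2-fold and 93% of 4-fold changes among all tested genes were found. Libraries are the replicates, and p-values measure the spread between pools of 2 mice. CPM in the text is UMIs per 1000000 UMIs of the summed class, and normalised CPM has TMM applied.

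The naming rule took the Hox genes with 10 or more UMIs and, from each other list, up to 3 genes with the smallest p, and 2 genes that it takes are not reported here. Members and lists were chosen with earlier results of these data known.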

Additional observations from a re-analysis of the deposited data

How the results depend on the processing

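The genotype comparison called 0 members higher and 0 lower. The count of higher members was 1 with cells of at least 200 genes and 20% mitochondrial UMIs (17.1% of all genes). It was also 1 with cells thinned to 1000 UMIs (13.1%), and 0 to 1 with each Ikkb_cKO library left out (12.0% to 23.4%). The count of lower members was 1 with at least 500 genes and 5% mitochondrial UMIs (18.8% of all genes) and with thinned cells (14.7%). It was 0 to 3 with each Ikkb_cKO library left out (12.4% to 24.9%). With the replicate number as a block, 1 was higher (Hoxa3, 1.80) and 1 lower (Hoxa9, -2.59), beside 23.8% and 24.0% of all genes. Both passed the filter through the group where they are high, so these calls are a description. The labels do not say that the numbers pair the libraries, and deviations from the genotype means of the libraries numbered alike correlated at 0.037 and -0.029. When Hox genes were allowed among the variable genes, none was picked, so that setting repeated the main values. With it counted, of 310 values of members under the alternatives, 286 kept their direction and side of the threshold. Of the rest, 11 passed it and 13 turned in sign. Of these 13, Hoxc8 was 0.011 with the strict low-count filter, 0.21 in thinned cells and 0.014 with Ikkb_cKO libraries 1 and 2 summed, and with the replicate block Hoxb4 was 0.058, Hoxd9 -0.41 and Hoxc4 -0.058. The others came from leaving out a library. Hoxc8 then ran between -0.18 and 0.15, Hoxb4 between -0.72 and 0.19 (0.061 without Ikkb_cKO library 2 and 0.072 without library 3), Hoxa5 between -0.29 and 1.07, Hoxd9 between -0.41 and 0.52, and Hoxc4 between -0.057 and 0.30. The cause was not tested.

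Against other classes, more genes were tested with no low-count filter. The counts of higher members were then 21 for myeloid-like (22.6% of all genes) and 20 for lymphocyte-like cells (24.3%). They were 5 for endothelial-like (12.7%) and 13 for keratinocyte-like cells (17.6%). With each library left out they were 6 to 10, 3 to 6, 2 to 3 and 1 to 5. The count of lower members against endothelial-like cells was 3 with no filter (6.35% of all genes) and 0 to 2 with a library left out. That against keratinocyte-like cells was 1 with no filter (8.63%). The shares of all genes with a library left out are not given here, so those counts are a description. Within cluster 5 no member could be tested, and within cluster 8 a single member was tested and not called. With WT library 1 or 2 left out, 1 WT library remains, which is assumed to vary like the others, and 0 members were called by edgeR, with 0 at an unadjusted p under 0.05. Over all genes these fits called 129 higher and 241 lower without WT library 1, and 84 higher and 216 lower without WT library 2.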
